A study of Mus musculus with 8 samples.

Results

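The genes described here are the ATF4 response and cytosolic aminoacyl-tRNA synthetase genes, a set of 32 listed by symbol. The set was chosen with earlier results of these data known. Of these, 29 were represented on the array by a transcript cluster annotated to that gene alone, among 19938 genes in all. Gdf15 and Pycr1 were not analysed here, and Aars was left out because its cluster is also annotated to the exosome gene Exosc6. Iars had a second cluster, and the brighter was used.

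Cells respond to amino acid shortage, misfolded protein or mitochondrial damage by phosphorylating the translation factor eIF2. General protein synthesis then falls, while the messenger RNA of the transcription factor ATF4 is translated more. ATF4 protein turns on genes for amino acid synthesis and uptake, for charging transfer RNAs and for the stress response itself, and in skeletal muscle it also drives the hormone gene Fgf21. Because ATF4 is controlled largely in translation, its own messenger RNA does not measure its activity, and the RNA of its targets is the usual readout.

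Expression was measured in the gastrocnemius, the large muscle of the calf, with 1 Affymetrix array for each of 8 male mice. In 4 animals (Gcn5skm-/-, genotype HSAcre Tg/0 and Gcn5 L2/L2, called knockout) a Cre transgene under the human skeletal actin promoter acted on floxed Gcn5 alleles. The 4 others (Gcn5skm+/+, genotype HSAcre 0/0 and Gcn5 L2/L2, called wild type) carried the same floxed alleles and no Cre. All were 6 months old, ate chow and were fasted for 5 h before the muscle was frozen. Gcn5, encoded by Kat2a, is a histone acetyltransferase that works within the coactivator complexes SAGA and ATAC. The Cre transgene was present only in knockouts, so its own effect and that of the deletion cannot be told apart, and the promoter is active in muscle fibres, so vessels, nerve and immune cells retain Gcn5. The values are log2 expression from RMA, so a difference of 1 is a change by a factor of 2, and every difference below is knockout minus wild type.

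The targeted gene Kat2a measured 6.50, 6.46, 6.45 and 6.43 in wild types 1 to 4 and 5.81, 5.84, 5.79 and 5.73 in knockouts 1 to 4, a difference of -0.66 (SE 0.08, limma adjusted p = 0.0319). The 10 muscle fibre markers, among them Acta1 and Ckm, were bright on every array, with a mean between 11.75 and 12.04. Array medians lay between 4.61 and 4.72. Wild type 2 stood apart on the first principal component, and wild type 4 and knockout 4 at opposite ends of the second. Macrophage markers were higher on average in knockouts for 14 of 16 genes, where 9038 of all 19938 genes were higher. At an unadjusted p under 0.05, 8 of the 16 were higher, against 2.34% of all genes, and 0 passed in limma over all genes. Their mean level was 5.45 to 5.58 in wild types and 5.69, 5.62, 5.88 and 6.23 in knockouts 1 to 4, so knockout 4 was the highest. Cd163 and Cd14 were the exceptions. In whole tissue, a change in the number of cells of a type and a change in RNA per cell cannot be told apart. The part of macrophages, slow fibres, adipocytes or Schwann cells in the values below was not tested.

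Many ATF4 targets carry a C/EBP-ATF response element near their start site, and its core is shown for the genes of the set to make clear which of them hold it. Promoter windows of 300 bases (250 before to 50 after the start, RefSeq, GRCm38.p6) were found for 27 of the 32 genes and searched on both strands for TGATGNAA. A match was present for 11 of the 27 (40.7%), against 4.51% of the 27025 genes with a window and 3.97% of all windows. The stretches shown, for 10 of these genes, are written 5′ to 3′ on the strand that holds the match, with the match in capitals and up to 11 bases on each side. The last value of each name is the distance of the match's centre from the start site in bases, negative before it.

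Trib3, chr2:152344028-152344057, + strand, 18: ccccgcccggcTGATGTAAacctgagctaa
Chac1, chr2:119351038-119351067, - strand, -189: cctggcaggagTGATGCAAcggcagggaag
Nupr1, chr7:126625562-126625591, + strand, -106: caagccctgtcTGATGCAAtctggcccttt
Asns, chr6:7693214-7693243, - strand, -19: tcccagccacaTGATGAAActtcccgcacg
Pycr1, chr11:120643833-120643862, - strand, -99: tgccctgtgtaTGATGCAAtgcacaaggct
Fgf21, chr7:45615611-45615640, + strand, -135: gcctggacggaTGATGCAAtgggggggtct
Slc7a11, chr3:50443642-50443671, + strand, -43: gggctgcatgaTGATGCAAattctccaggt
Slc7a11, chr3:50443661-50443690, - strand, -62: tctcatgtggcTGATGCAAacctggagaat
Vldlr, chr19:27216809-27216838, - strand, -196: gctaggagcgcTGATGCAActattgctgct
Gars, chr6:55037960-55037989, - strand, -26: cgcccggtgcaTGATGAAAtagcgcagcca
Iars, chr13:49682126-49682155, - strand, 11: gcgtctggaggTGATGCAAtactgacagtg

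Among the genes shown, Slc7a11 held 2 matches. Of the matches shown, those of Trib3 and Iars lay just after the start site and the others before it. Asns, whose product makes asparagine, is the textbook target of this element, and its 250 bases before the start are chr6:7693210-7693459 on the - strand, written along the gene with the match in capitals.

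Asns: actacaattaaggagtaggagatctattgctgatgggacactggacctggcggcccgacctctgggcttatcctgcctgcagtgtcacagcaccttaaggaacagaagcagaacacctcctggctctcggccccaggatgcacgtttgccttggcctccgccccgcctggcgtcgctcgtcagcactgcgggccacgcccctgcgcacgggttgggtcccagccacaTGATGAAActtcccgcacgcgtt

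The question for this set is whether the knockout muscle, with its lower Kat2a RNA, shows an altered amino acid and stress response in RNA. No gene of the set passed the test: 0 of 29 had a limma adjusted p under 0.05, where 0.0150% of all genes did, and the adjusted p values of the 29 lay between 0.861 and 0.992. At an unadjusted p under 0.05 there was 1 of 29 (3.45%), against 5.73% of all genes. The groups overlapped for every one of the 29, while they did not overlap for 3.62% of all genes. Differences ran from -0.25 (Eif4ebp1) to 0.28 (Gpt2), 15 above and 14 below 0, with a median of 0.03 against -0.01 over all genes. The 95% intervals of 25 of the 29 lay within 0.5 log2 units of 0, where those of 18086 of all 19938 genes did. The exceptions in the set were Chac1, Ddit4, Phgdh and Gpt2, and over the whole set the intervals reached from a fold of 0.673 to a fold of 1.51.

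**Figure D1:**
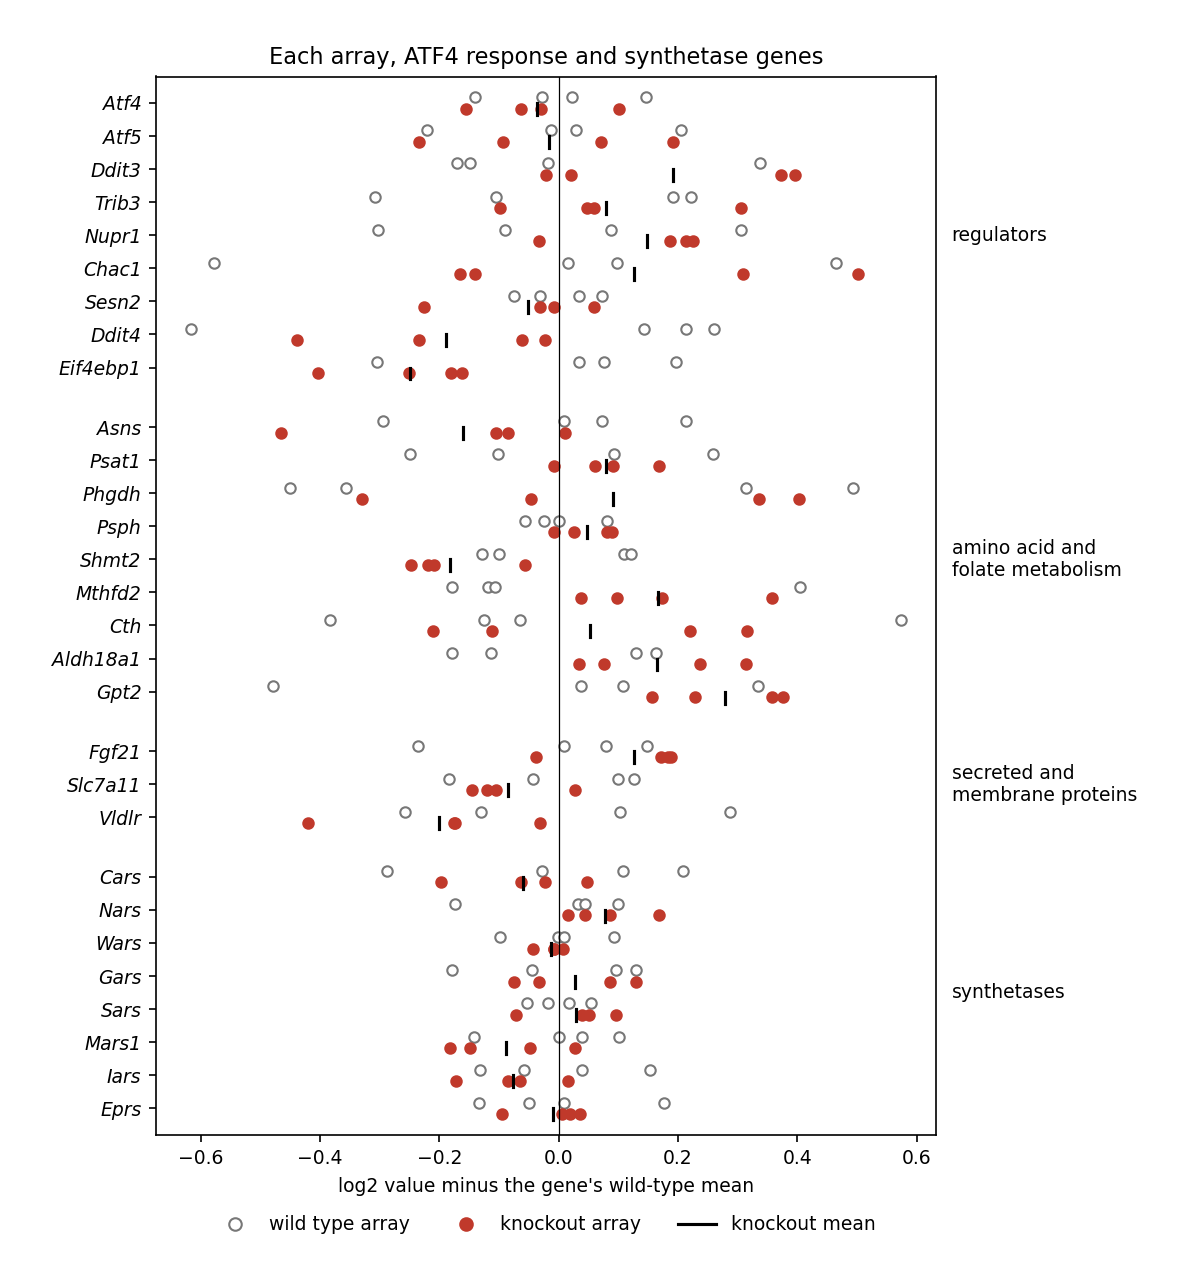
Value of each measured gene on each of 8 arrays, as log2 value minus the gene's wild-type mean; open points are the 4 wild types, filled points the 4 knockouts and the black bar the knockout mean. Wild-type and knockout points overlap in every row.

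The transcription factors of the response lay close together in both genotypes. Atf4 measured 6.55, 6.72, 6.43 and 6.60 in wild types 1 to 4 and 6.67, 6.42, 6.51 and 6.54 in knockouts 1 to 4. Its difference of -0.04 (SE 0.09, 95% interval -0.24 to 0.17) was smaller than the spread within either group (SD 0.12 and 0.11, n = 4 each). Atf5, a related factor that is also controlled in translation, measured 6.13 ± 0.17 in wild type and 6.11 ± 0.19 in knockout. Its arrays covered nearly the same range in both genotypes, 5.91 to 6.34 in wild type and 5.90 to 6.32 in knockout.

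Ddit3 encodes CHOP, the factor that pushes a lasting stress response towards cell death. It measured 5.60, 5.44, 5.95 and 5.46 in wild types 1 to 4 and 5.59, 6.01, 5.99 and 5.64 in knockouts 1 to 4. Knockouts 2 and 3 and wild type 3 were high, and the other 5 arrays lay between 5.44 and 5.64. The difference was 0.19 (SE 0.14, limma adjusted p = 0.879), and 0.305 without wild type 3, with an unadjusted p under 0.05. In the RefSeq annotation the ends of Ddit3 and of the synthetase gene Mars1 overlap by 71 bases, and the Mars1 difference was -0.09. Trib3, a pseudokinase that restrains ATF4 and CHOP, measured 5.48, 4.95, 5.45 and 5.16 in wild types and 5.32, 5.31, 5.57 and 5.16 in knockouts. Wild type 2 was the lowest array for Trib3, and without it the difference of 0.08 became -0.02.

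Chac1, Nupr1 and Sesn2 are effectors further downstream. Chac1, which degrades glutathione and is a sensitive ATF4 target, had the widest spread of these, 8.03 to 9.08 in wild type and 8.45 to 9.11 in knockout. The difference of 0.13 (SE 0.20) was well inside that spread. Nupr1, a small stress-induced chromatin protein, measured 5.96 ± 0.26 and 6.11 ± 0.12. Sesn2, a sestrin that dampens mTORC1 signalling when leucine is short, measured 4.40 ± 0.07 and 4.35 ± 0.12, so neither gene separated the groups.

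Ddit4 and Eif4ebp1 both restrain growth signalling: Ddit4 encodes REDD1, an inhibitor of mTORC1, and Eif4ebp1 encodes 4E-BP1, which blocks cap-dependent translation until mTORC1 phosphorylates it. Ddit4 measured 6.06, 6.11, 5.23 and 5.99 in wild types 1 to 4 and 5.83, 5.61, 5.79 and 5.41 in knockouts 1 to 4. Wild type 3 lay below every knockout while wild types 1, 2 and 4 lay above every knockout. The difference of -0.19 over all arrays became -0.39 without wild type 3, with an unadjusted p under 0.05 and a limma adjusted p of 0.528.

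Eif4ebp1 was the gene of the set at an unadjusted p under 0.05, where 3.39% of all genes were lower and 2.34% higher. It measured 8.54, 8.42, 8.04 and 8.38 in wild types 1 to 4 and 8.16, 7.94, 8.09 and 8.18 in knockouts 1 to 4. All knockouts lay below wild types 1, 2 and 4, and wild type 3 lay among the knockouts. The difference was -0.25 (SE 0.11, limma adjusted p = 0.861). It ranged from -0.35 to -0.18 when single arrays were left out and kept an unadjusted p under 0.05 in 2 of those 8 refits, those without wild type 3 and without knockout 4.

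**Figure D2:**
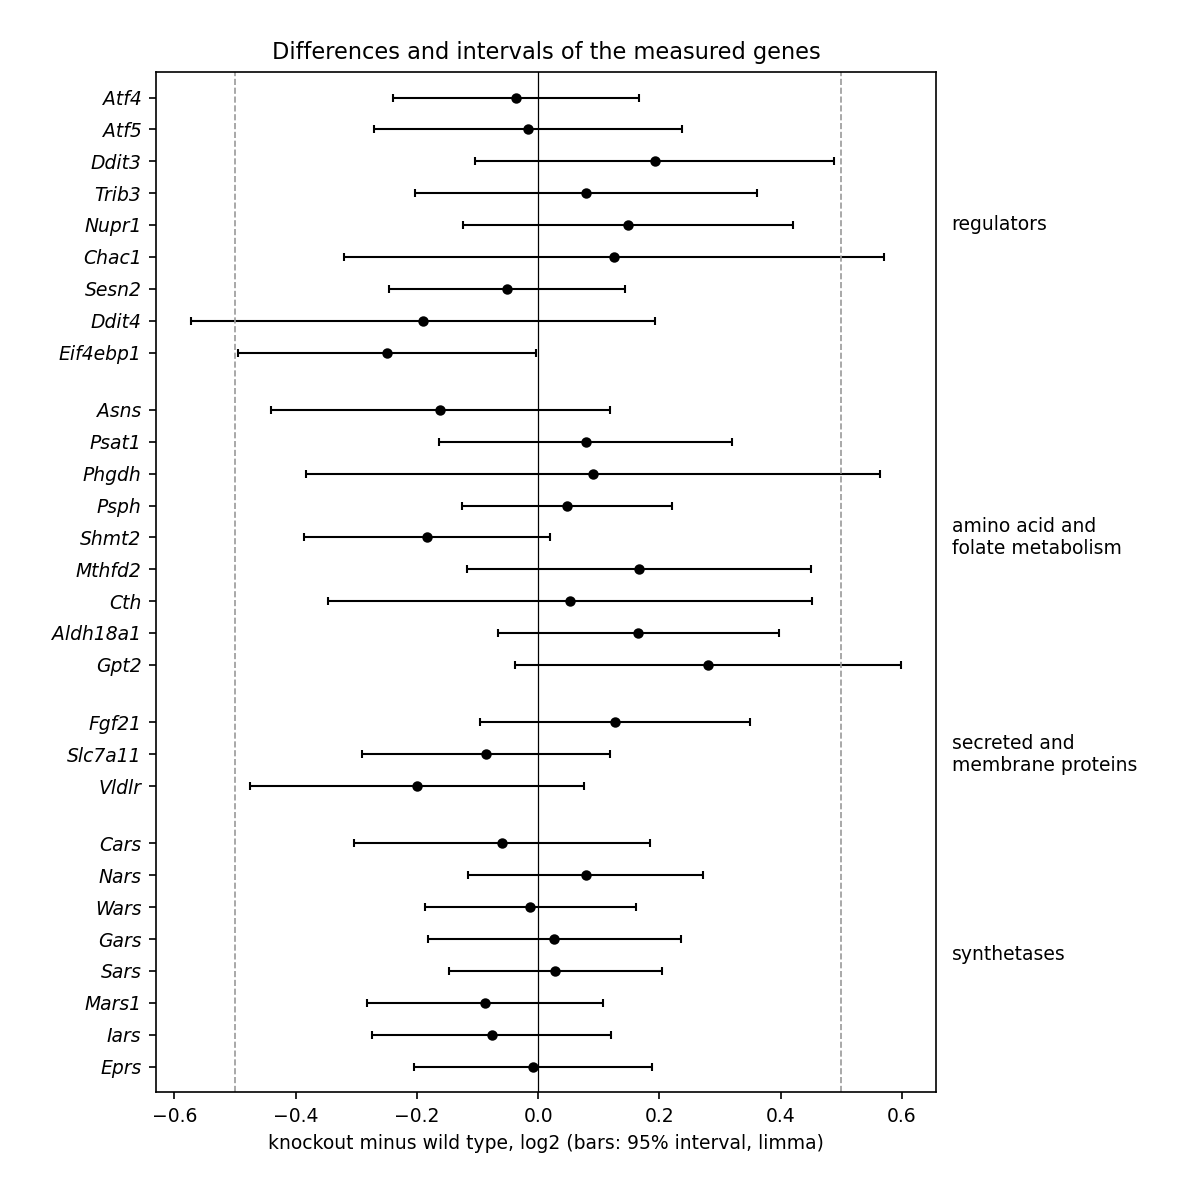
Difference of each measured gene, knockout minus wild type in log2 units, with its 95% interval from limma; dashed lines mark 0.5 in either direction. Eif4ebp1 at -0.25 is the gene whose interval does not include 0 before adjustment, and the intervals of Chac1, Ddit4, Phgdh and Gpt2 extend past a dashed line.

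ATF4 raises the supply of serine, glycine, asparagine, proline, alanine and cysteine through genes of amino acid and folate metabolism. Of these genes 7 of 9 lay above 0, where 9038 of all 19938 genes did. At an unadjusted p under 0.05 in limma 0 of 9 passed, against 5.73% of all genes. Asns measured 4.98, 4.61, 4.91 and 5.12 in wild types 1 to 4 and 4.82, 4.80, 4.91 and 4.44 in knockouts 1 to 4. Knockout 4 and wild type 2 were its low arrays, and the remaining arrays of both genotypes overlapped (difference -0.16, SE 0.13). The serine synthesis genes Phgdh, Psat1 and Psph, whose products act in sequence, differed by 0.09, 0.08 and 0.05. Phgdh fell into high and low arrays in both genotypes, 5.22 and 5.40 against 4.46 and 4.55 in wild type and 5.24 and 5.31 against 4.58 and 4.86 in knockout. A cluster shared by Phgdh and Gm6756 differed by 0.11.

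The mitochondrial folate enzymes of the set, which take the serine carbon onward, had differences of opposite sign, and the groups overlapped for each. Shmt2 measured 6.34 ± 0.13 in wild type and 6.16 ± 0.09 in knockout, a difference of -0.18 (SE 0.09, limma adjusted p = 0.869). Mthfd2, the next enzyme, measured 4.74 ± 0.27 and 4.91 ± 0.14, a difference of 0.17 (SE 0.13). Wild type 4, at 5.14, lay above all knockouts for Mthfd2 and wild types 1 to 3, at 4.56 to 4.63, below all of them.

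Gpt2, the mitochondrial alanine transaminase that links pyruvate and glutamate in muscle, had the widest difference of the set. It measured 8.99, 9.22, 8.41 and 8.92 in wild types 1 to 4 and 9.24, 9.04, 9.12 and 9.26 in knockouts 1 to 4. Wild type 2 lay within the range of the knockouts, and wild types 1, 3 and 4 lay below it. The difference was 0.28 (SE 0.15, limma adjusted p = 0.869), 0.12 without wild type 3 and 0.39 without wild type 2. Aldh18a1, which starts proline synthesis, differed by 0.17 (SE 0.11), and Cth, which makes cysteine from cystathionine, by 0.05 (SE 0.18) with wild types spread from 4.54 to 5.50.

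Among the genes for secreted and membrane proteins, Fgf21 encodes a hormone that stressed muscle can release. It measured 4.09, 3.70, 3.95 and 4.02 in wild types 1 to 4 and 4.13, 3.90, 4.11 and 4.12 in knockouts 1 to 4. Knockouts 1, 3 and 4 lay above all wild types and knockout 2 among them (difference 0.13, SE 0.10, limma adjusted p = 0.903). Slc7a11, the cystine transporter, measured 2.96 ± 0.14 and 2.88 ± 0.08, and was the member of the set among the dimmest 25% of genes, whose means lay under 3.76. RMA compresses differences of such dim genes. Fgf21, Psat1, Sesn2, Asns, Mthfd2, Cth, Aldh18a1 and Phgdh also had means under the median gene's 4.98, so that limit can bear on their differences too. Vldlr, a lipoprotein receptor, measured 9.88, 9.69, 9.34 and 9.46 in wild types 1 to 4 and 9.42, 9.56, 9.42 and 9.17 in knockouts 1 to 4. Its highest arrays were wild types 1 and 2 and its lowest knockout 4, with the rest overlapping (difference -0.20, SE 0.13, limma adjusted p = 0.876).

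Aminoacyl-tRNA synthetases load each transfer RNA with its amino acid, and those of the cytosol that are listed here are raised by ATF4 when amino acids run short. The 8 measured genes had differences between -0.09 and 0.08, 3 above and 5 below 0, and their median was -0.01. All of their 95% intervals lay within 0.5 log2 units of 0 and 7 of 8 within 0.3, from a fold of 0.811 to one of 1.21 over the group. Of all 19938 genes, 18086 had intervals within 0.5 and 8499 within 0.3. Nars, for asparagine, differed by 0.08 (SE 0.09), Gars, for glycine, by 0.03 (SE 0.10), and Sars, for serine, by 0.03 (SE 0.08). Mars1, for methionine, differed by -0.09, Iars, for isoleucine, by -0.08 and Cars, for cysteine, by -0.06, each with an SE from 0.09 to 0.11. Eprs, which loads both glutamate and proline, and Wars, for tryptophan, each differed by -0.01.

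For 2 synthetases another cluster could be examined. The second Iars cluster differed by -0.09, and the cluster that Aars, for alanine, shares with Exosc6 by -0.06. Wars measured 7.02 ± 0.08 in wild type and 7.01 ± 0.02 in knockout. Cars had the widest range of the 8 over all arrays, from 6.47 in wild type 3 to 6.96 in wild type 4.

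Across arrays, several synthetases ranked alike. Wild type 2 was the highest array for 4 of 8 (Wars, Mars1, Iars and Eprs), and wild type 3 the lowest for 4 of 8 (Cars, Wars, Gars and Eprs). Knockout 3 was the lowest for Sars, Mars1 and Iars. For the 21 other members of the set wild type 2 was instead the lowest array in 9 cases, among them Ddit3, Trib3, Nupr1, Psat1 and Fgf21. Over all genes, wild type 2 was the highest array for 35.7% of the brighter 50% of all genes and the lowest for 28.3% of the dimmer 50%. It was the lowest for 13.9% of the brighter 50%, to which Ddit3, Trib3 and Nupr1 belong. Wild type 3 was the lowest array for 17.9% of the brighter 50%. After quantile normalization of the deposited values, chosen for these counts after the data were seen, wild type 2 was the highest for 1 of 8 synthetases and the lowest for 2, and for the 21 others the lowest in 7 cases. Wild type 3 was then still the lowest for 3 of 8 synthetases. Of all genes after this normalization, wild type 2 was the highest for 20.3% and the lowest for 20.3%, and wild type 3 the lowest for 12.6%. Of the other cytosolic synthetase and scaffold genes, 9 of 14 were highest in wild type 2 as deposited and 2 of 14 after quantile normalization. Of the mitochondrial synthetases, 9 of 16 were highest there as deposited and 8 of 16 after it.

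**Figure D3:**
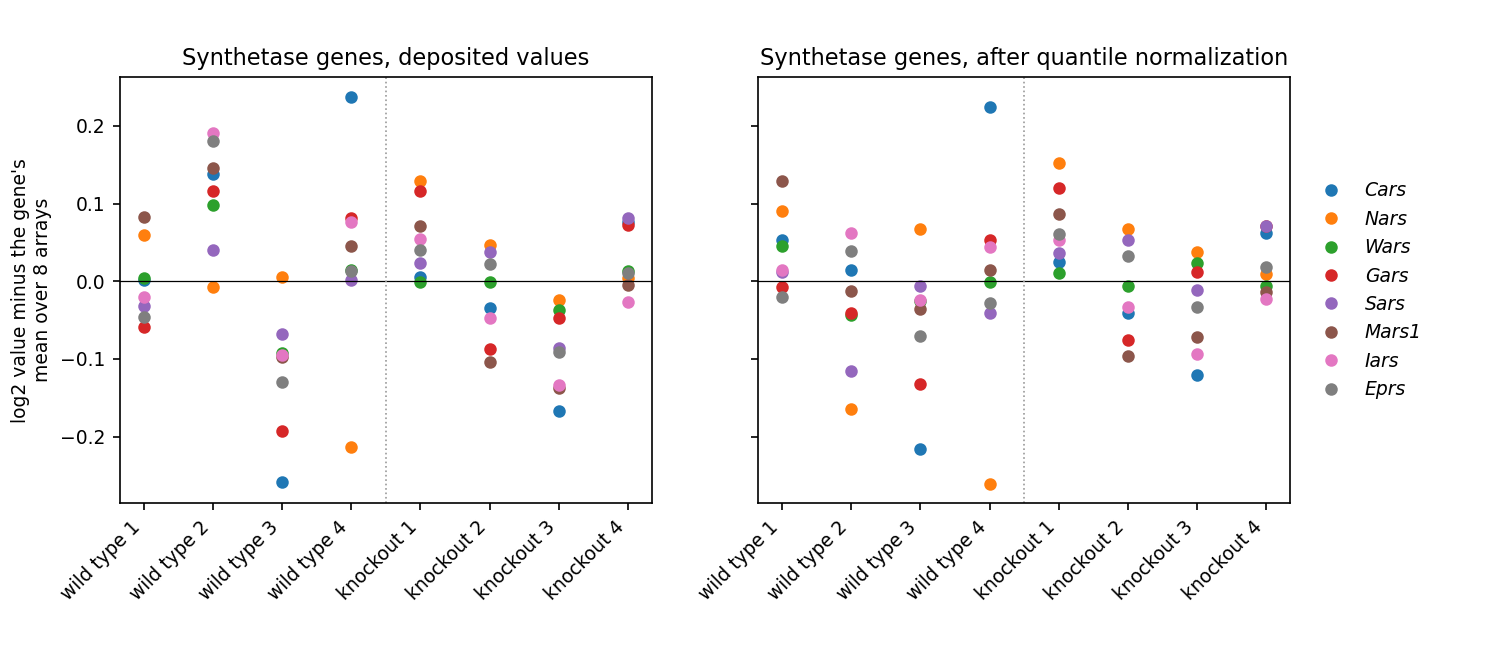
Log2 value of the 8 measured synthetase genes on each array, minus the gene's mean over the 8 arrays, as deposited (left) and after quantile normalization (right); each colour is a gene, and the dotted line divides wild type from knockout. On the left 7 of the 8 genes lie above 0 in wild type 2 and below 0 in wild type 3, with Nars as the exception; on the right wild type 2 lies on both sides of 0.

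Differences lay on both sides of 0 whether or not the window held the response element, from -0.20 to 0.15 with a match and from -0.19 to 0.28 without. The 9 measured genes with a match had a median difference of 0.03, 5 of them above 0, and the 15 measured genes whose windows held no match had a median of 0.03, 8 above 0. Among all genes tested, 565 had a match, of which 0 passed at a limma adjusted p under 0.05, where 0.0150% of all genes did. At an unadjusted p under 0.05 there were 29 (5.13%), against 5.64% of the 15049 tested genes without a match. The median difference was -0.02 with a match and -0.01 without. Absence of these letters from a window says nothing about a site elsewhere.

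Upstream of ATF4, the kinases and factors that set the eIF2 signal were examined as a list of 18 genes, 17 of them measured. In limma 0 passed at an adjusted p, and 0 at an unadjusted p under 0.05, against 5.73% of all genes. Of the differences, 6 were above and 11 below 0, with a median of -0.04. The kinases Eif2ak1, Eif2ak2, Eif2ak3 (PERK) and Eif2ak4 (GCN2) differed by -0.04, 0.01, 0.01 and -0.10. Eif2b1, a subunit of the exchange factor that phosphorylated eIF2 inhibits, measured 6.71, 6.78, 6.78 and 6.51 in wild types and 6.90, 6.83, 6.80 and 6.97 in knockouts. All knockouts lay above all wild types for Eif2b1, by a narrow margin (difference 0.18, SE 0.09, limma adjusted p = 0.869). Groups did not overlap for 1 of the 17 genes, against 3.62% of all genes. The other subunits with the smallest p, Eif2b2 and Eif2b5, differed by -0.14 and -0.10, and Gcn1, a partner of GCN2, by -0.13.

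Other partners and targets of ATF4 had 19 of 20 genes measured, with a median of 0.04. At an unadjusted p under 0.05 there was 1 gene in each direction (10.5% in all). Of all genes 2.34% were higher and 3.39% lower at that threshold. Atf3, a stress-induced factor of the same family, measured 5.56, 5.68, 6.47 and 6.00 in wild types and 5.09, 5.54, 5.51 and 5.74 in knockouts. Wild types 3 and 4 were its high arrays, and wild types 1 and 2 lay among the knockouts (difference -0.46, SE 0.19, limma adjusted p = 0.861). Stc2, which encodes the glycoprotein stanniocalcin 2, measured 4.61, 4.07, 4.62 and 4.29 in wild types and 4.65, 4.66, 4.73 and 4.71 in knockouts. Every knockout was above every wild type for Stc2, though only slightly above wild types 1 and 3 (difference 0.29, SE 0.12, limma adjusted p = 0.861). Groups did not overlap for 1 of the 19 genes, against 3.62% of all genes. Aldh1l2, a mitochondrial folate enzyme, differed by 0.19 and the pseudokinase gene Trib2 by -0.18.

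The remaining cytosolic synthetases with their scaffold proteins (14 of 15 measured) and the mitochondrial synthetases (16 of 17 measured) had medians of 0.02 and 0.03. Aimp2 encodes a scaffold of the complex that holds several synthetases including those of Eprs, Iars and Mars1. It was the gene of the first list at an unadjusted p under 0.05 (7.14%), and the mitochondrial list had 0, against 5.73% of all genes. Aimp2 measured 8.70, 8.995, 8.63 and 8.55 in wild types 1 to 4 and 9.43, 9.03, 8.97 and 9.41 in knockouts 1 to 4. Knockouts 1 and 4 were high, while knockout 3 lay just below wild type 2 (difference 0.49, SE 0.13, limma adjusted p = 0.553). The other scaffold genes Aimp1 and Eef1e1 differed by 0.03 and 0.04. Hars, Rars and Farsa, the synthetase genes of that list with the smallest p, differed by 0.14, -0.09 and 0.06, and Sars2, Cars2, Mars2 and Vars2 of the mitochondrial list by 0.14, -0.10, -0.15 and -0.11.

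Gene groups that share ATF4 or the same stress signals are set beside the members for comparison, with no test between lists. These lists were chosen with earlier results of these data known, so their counts beside all genes are description only. Endoplasmic reticulum chaperones and unfolded protein response genes had 20 of 22 differences below 0, where 10900 of all 19938 genes were below 0, and a median of -0.09. For 3 of the 22 the groups did not overlap, against 3.62% of all genes. Hspa5, the reticulum's Hsp70 protein, differed by -0.25 (SE 0.10, limma adjusted p = 0.859), Pdia4 by -0.19, Hsp90b1 by -0.16 and Dnajc3 by -0.18. Amino acid transporters had 11 of 17 below 0 and a median of -0.09, with 3 at an unadjusted p under 0.05, all lower, where 3.39% of all genes were lower at that threshold. Slc38a2, a glutamine and alanine transporter that ATF4 also induces, measured 9.82, 9.80, 9.64 and 9.78 in wild types and 9.41, 9.27, 9.31 and 9.32 in knockouts (difference -0.44, SE 0.08, limma adjusted p = 0.194). Its groups did not overlap, as for the leucine transporter gene Slc7a5 (-0.19, SE 0.08), which makes 2 of 17 against 3.62% of all genes. Slc38a4 differed by -0.41 and Slc1a5 by -0.27. In all 6 lists 0 genes passed over all genes in limma.

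**Figure D4:**
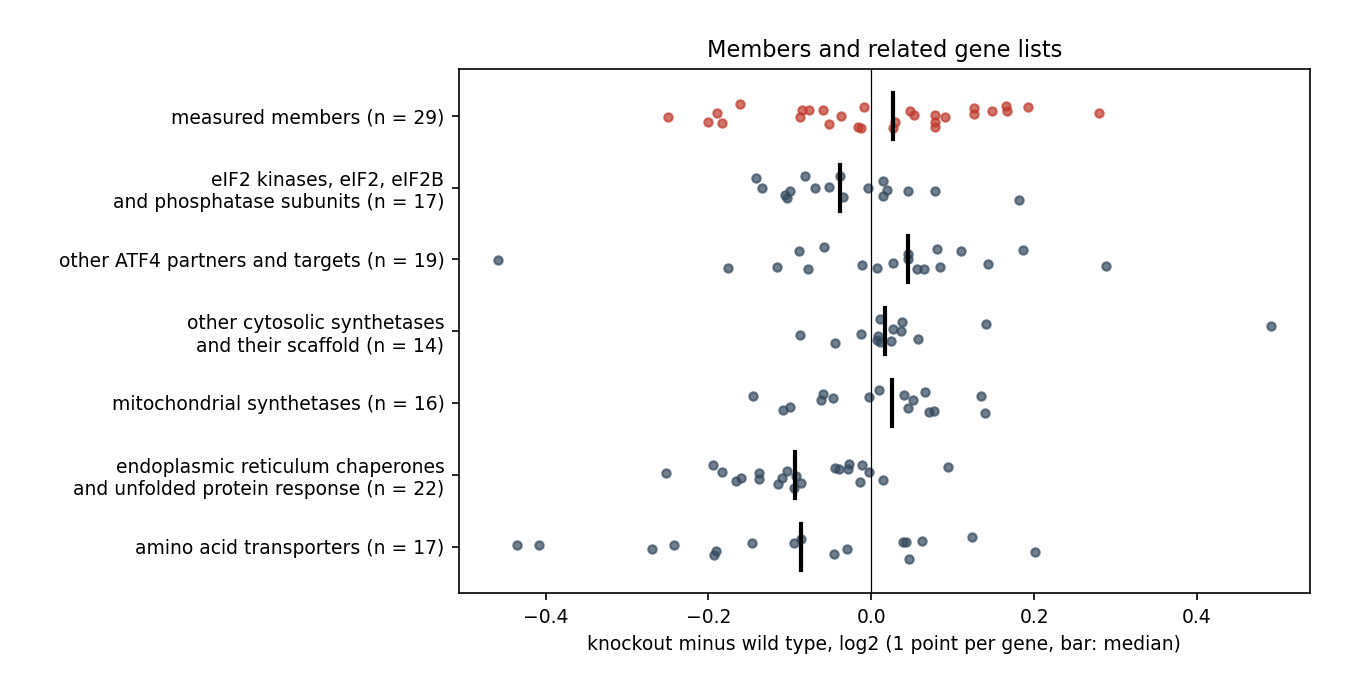
Difference of each measured gene, knockout minus wild type in log2 units, for the 29 genes of the set and 6 related lists; each point is 1 gene and the black bar is the median of the list. The set spans -0.25 to 0.28 on both sides of 0, Aimp2 is the point at 0.49, Atf3 the point at -0.46, and the medians of the chaperone and transporter lists lie at -0.09.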

How the data were processed

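The authors deposited 1 table of log2 values for 35556 transcript clusters, for which the submitters' processing notes name RMA and Expression Console; settings, version and genome build are not given in the sources used here. The array annotation gave 21789 clusters 1 gene symbol, 1621 several and 12146 none here. Clusters with 1 symbol were used, the brightest per gene, with no filter on dim genes, which left 19938. Groups came from the labels. Knockout and wild type (4 arrays each, whose number limits the precision) were compared over all genes by moderated tests (limma 3.58.1, lmFit, eBayes; R 4.3.3), with Benjamini-Hochberg adjustment and a threshold of 0.05. Nominal p values under 0.05 are also limma's. Intervals are moderated 95% intervals.

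The members and lists were chosen with earlier results of these data known. All members are reported, with each array's value for those at an unadjusted p under 0.05 or with groups that do not overlap, the 4 next widest differences, and Atf4, Ddit3, Trib3, Asns and Fgf21. From each list the 4 genes with the smallest p were named; the eIF2 kinases, Aimp1 and Eef1e1 were added after their values were seen. The fit was tested on simulated data whose changes were all larger than any difference in the set. That test does not speak to differences as small as those reported here. Figures used matplotlib 3.10.9. Matching stretches of 1 gene are not reported here.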

Additional observations from a re-analysis of the deposited data

Results flagged for a closer look

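In 5 of 108 groups of 4 arrays examined, 1 array stood apart from the other 3 by more than 0.829 of the group's range; chance flags about 1 group in 20. Nupr1 measured 5.93 in knockout 4 and 6.15 to 6.18 in the other knockouts. Ddit4 measured 5.23 in wild type 3 against 5.99 to 6.11 in the other wild types, and Mthfd2 5.14 in wild type 4 against 4.56 to 4.63. Fgf21 measured 3.90 in knockout 2 and 4.11 to 4.13 in the other knockouts. Farsa, a subunit gene of phenylalanyl-tRNA synthetase, measured 5.82 in wild type 3 and 5.91 to 5.92 in the other wild types.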

How the results depend on the processing

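In limma, 0 members passed an adjusted p of 0.05 under any of the 19 alternatives run (lowest adjusted p 0.513), and 0 passed a threshold of 0.10. The count at an unadjusted p under 0.05 was 1 as reported, 0 after median centring and over all deposited clusters, 2 with array weights (Eif4ebp1 and Gpt2), and between 0 and 4 when single arrays were left out: 2 without wild type 2 (Asns and Gpt2), 2 without knockout 4 (Eif4ebp1 and Shmt2), 4 without wild type 3 (Ddit3, Ddit4, Eif4ebp1 and Vldlr) and 0 without knockouts 1, 2 or 3. The share of all genes at that threshold moved as well: 5.73% as reported, 6.07% with array weights and 4.48% without knockout 4. It was 7.0% without wild type 2 and 7.51% without wild type 3. Over the single arrays left out it ranged from 4.19% (wild type 4) to 7.64% (wild type 1). After quantile or cyclic loess normalization, or without wild type 2 and knockout 4 together, Gpt2 took the place of Eif4ebp1, as did Shmt2 without wild type 1 and Mthfd2 without wild type 4. The median over members was -0.0109 without the dimmest 50% of genes, which left 20 members, and lay between -0.0134 and 0.0253 when single arrays were left out. 17 members kept their sign throughout. With array weights the sign turned for Atf4 (3.67e-06), Trib3 (-0.0198), Psat1 (-0.00411), Phgdh (-0.131), Wars (0.00677) and Eprs (0.0372). Without wild type 2 and knockout 4 together it turned for Atf4 (0.00938), Psat1 (-0.0349), Phgdh (-0.11), Wars (0.0113) and Eprs (0.0448). Quantile normalization gave 0.0116 for Wars and 0.0395 for Eprs, and cyclic loess 0.0163 and 0.0312. With single arrays left out, differences that turned ranged from -0.0835 to 0.0119 for Atf4, -0.0904 to 0.056 for Atf5, -0.0243 to 0.152 for Trib3, -0.0672 to 0.281 for Chac1, -0.0883 to 0.00668 for Sesn2, -0.00475 to 0.165 for Psat1, -0.0598 to 0.255 for Phgdh, -0.0748 to 0.244 for Cth, -0.156 to 0.00962 for Cars, -0.0459 to 0.0178 for Wars, -0.0332 to 0.0698 for Gars and -0.0537 to 0.0497 for Eprs. The causes were not tested. The number of synthetases highest in wild type 2 went from 4 to 1 with quantile normalization. Same-numbered arrays had deviations that correlated at 0.0939, 0.0655, 0.222 and -0.103, and wild types 1 and 3 correlated best with their own number. Such correlations cannot decide whether the numbers pair the animals. With the replicate number as a block 0 members passed and 1 had an unadjusted p under 0.05, against 6.45% of all genes. With 4 arrays a group, the median SE was 0.105 over all genes and 0.111 over members, which limits what could be resolved.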
